A study of Homo sapiens with 6 samples.

Results

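The V-ATPase and the lysosomal mTORC1 nutrient sensing machinery were followed as 46 genes taken by symbol from a fixed list, of 63236 genes in the deposited table of FUJIOKA cells. FUJIOKA is a human acute myeloid leukaemia cell line with a complex karyotype. Of these genes, 17 encode the proton pump or its accessory proteins and 29 encode Ragulator, Rag GTPases, the folliculin complex, mTORC1, RHEB, the TSC complex, GATOR1, GATOR2 and CASTOR1, and all 46 were among the 17395 genes that carry an adjusted p-value. The 3 shNEG libraries came from cells stably transduced with a scrambled control shRNA in the vector Tet-pLKO-puro, and the 3 shSPINK2 libraries from cells with a SPINK2-targeting shRNA in that vector. In both groups the shRNA is switched on by doxycycline. The labels name 2 SPINK2 shRNAs and the methods name 1, and which of them each shSPINK2 library carries is not given in the sources used here, nor is the time on doxycycline when RNA was taken. Nothing says that libraries of a group came from separate cultures, so the p-values measure the spread between these libraries, which may be technical.

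The V-ATPase is a rotary proton pump that acidifies lysosomes, endosomes and the Golgi. Its soluble V1 sector hydrolyses ATP and turns the proton-carrying V0 sector in the membrane. On the lysosomal surface the pump binds Ragulator, the anchor of the Rag GTPases, which recruit the kinase complex mTORC1 when amino acids are plentiful. GATOR1 switches the Rags off, GATOR2 restrains GATOR1, the folliculin complex acts on RagC and RagD, and the TSC complex switches off RHEB, the GTPase that activates mTORC1.

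Messenger RNA was sequenced in pairs of 150 bases, and fold changes and adjusted p-values are those of the authors' DESeq2 table. Whole reads per library were recovered from the deposited mean and fold change of each gene (the account of the processing says how) with exactly 1 solution for all 46 genes and for 17306 genes in all (99.5% of those tested). The recovered libraries are named A, B and C within each group, in no order that the labels give. They held between 31907060 and 32650653 reads. Over 10402 genes, the SD of a library's log2 deviation from its group mean lay between 0.046 and 0.051 in shNEG and between 0.062 and 0.074 in shSPINK2. No single library stood apart, but the spread was larger in every shSPINK2 library than in any shNEG library. SPINK2, the targeted gene, had 56, 63 and 53 reads in shNEG A, B and C and 7, 9 and 6 in shSPINK2 A, B and C, and fell by 2.98 ± 0.41 on the log2 scale (adjusted p = 2.41e-12). Errors of log2 fold changes are SEs throughout. The myeloid genes CEBPA, SPI1, PTPRC and CD33 had mean normalised read counts of 32858, 10673, 9179 and 7777, while EPCAM, KRT5, KRT19 and HBB were at 0 and PAX5, MS4A1 and CD3E were under 1. CD34 and KIT, marks of immature cells, had means of 19.6 and 0.67.

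Silencing was accompanied by moderate shifts in most of the 46 genes, more of them upward. By the adjusted p-value under 0.05, 25 genes were higher in shSPINK2 (54.3%), against 22.7% of all genes tested, and 12 were lower (26.1%), against 24.4%. Among tested genes averaging at least 50 normalised reads the corresponding shares were 29.8% and 32.1%, and the median mean was 2155 for the 46 genes and 538 for all tested genes. The remaining 9 genes were not called. CASTOR1 was the only gene that also had a log2 fold change over 1, a combination met by 1.56% of all tested genes, and no gene had a log2 fold change below -0.57, where 2.71% of tested genes were called with one below -1. Normalised reads of the groups did not overlap in the upward direction for 26 genes, against 29.2% of the genes with recovered reads, and in the downward direction for 11 genes, against 30.2%. In bulk RNA a change in each cell and a change in the mix of cell states cannot be told apart.

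**Figure D1:**
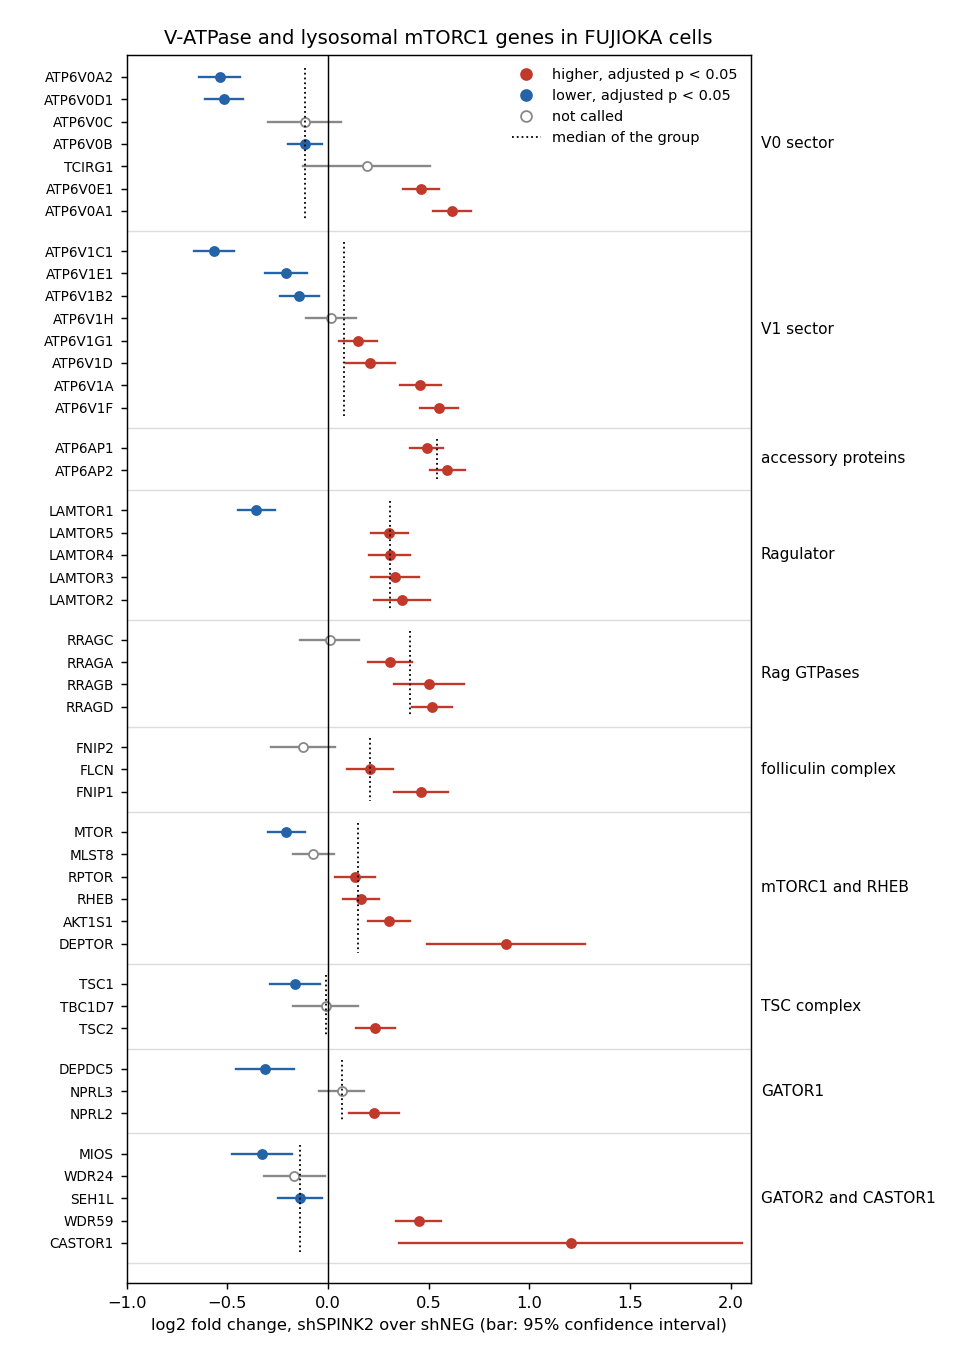
Log2 fold change of each of the 46 genes, shSPINK2 over shNEG, with its 95% confidence interval, by complex. Filled points passed the adjusted p-value of 0.05 (25 higher in red, 12 lower in blue), open points did not (9), and dotted lines are the medians of each group, from -0.14 for GATOR2 and CASTOR1 to 0.54 for the accessory proteins.

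Proton pump genes and sensing genes both leaned upward, and a larger share of the pump genes was lower. Of 17 pump genes, 8 were higher (47.1%), 6 were lower (35.3%) and 3 were not called, with a median log2 fold change of 0.15. Of 29 sensing genes, 17 were higher (58.6%), 6 were lower (20.7%) and 6 were not called, with a median of 0.21, beside 0.01 for all tested genes. Among tested genes averaging at least 50 normalised reads, 29.8% were higher and 32.1% lower, so the pump's share of lower genes was near that of the background. The interquartile range of the log2 fold changes was 0.60 for the pump and 0.46 for sensing, and 0.56 for all tested genes. Summed over the pump genes, normalised reads per kilobase of canonical transcript were 35712 ± 504 in shNEG and 40595 ± 456 in shSPINK2 (SD, n = 3), a ratio of 1.14. That ratio was not shared by the parts of the pump. It was 1.00 for V0, 1.12 for V1 and 1.45 for the accessory proteins. For the sensing genes the sums were 29591 ± 413 and 32859 ± 440, a ratio of 1.11. Genes are not replicates, so these summaries are descriptions of both lists and the difference between them was not tested.

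The 46 genes were also searched for GCTCTCA, a 7-base word of the second shRNA that an earlier look at these data had pointed to, and its sites are shown because ATP6V0A2, ATP6V0D1 and RRAGD are among the genes with the largest fold changes. Across 11130 tested genes that had at least 50 normalised reads on average and a GENCODE 3′ UTR, the 1173 genes with the word in the 3′ UTR had a median log2 fold change of -0.20, with 53.5% lower and 16.9% higher. The 8779 genes with it neither there nor in the coding sequence had a median of 0.02, with 30.6% lower and 33.3% higher. As the word came from a look at these same data, these shares are descriptions and not a separate test of it. The genes were not matched on the length of the 3′ UTR. The word lies in the target of shRNA2 and not in that of shRNA1. Both targets are given 5′ to 3′, followed by the sites in the canonical 3′ UTRs with the word in capitals and 11 bases on each side.
shRNA1 target: tcagggaaggtggtcataata
shRNA2 target: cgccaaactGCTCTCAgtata
ATP6V0A2 site: aaaatgattctGCTCTCAaagttatgctt
ATP6V0D1 site: cctggcccaagGCTCTCAattgcactctt
TSC1 site: taactgggttgGCTCTCAattagaccagg
RRAGD site, upstream: gctttggtaaaGCTCTCAtttcaagtgta
RRAGD site, downstream: ctgattaaccaGCTCTCAttttatggaaa

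The longest stretch shared with the shRNA2 target was 9 bases at the ATP6V0A2 site and 7 bases, the word itself, at the others. Counted from the stop codon, the word starts at base 1880 of 3723 in the 3′ UTR of ATP6V0A2, at base 15 of 509 in that of ATP6V0D1, at base 398 of 4886 in that of TSC1, and at bases 3203 and 3375 of 3440 in that of RRAGD. DEPTOR also has it in the 3′ UTR, at a site not printed here. Of these 5 genes, ATP6V0A2, ATP6V0D1 and TSC1 were lower and RRAGD and DEPTOR were higher. In 6 further genes the word lies in the coding sequence only, of which LAMTOR1, DEPDC5, ATP6V1E1 and MTOR were lower and FNIP1 and ATP6AP1 were higher. Together, 7 of the 11 genes with the word were lower and 4 higher, while of the 35 genes without it 5 were lower, 21 higher and 9 not called. In all tested genes averaging at least 50 reads, 43.5% of those with the word in the coding sequence only were lower. With the word in either place, 48.5% were lower and 20.0% higher. With it in neither place, 30.6% were lower and 33.3% higher. The genes without the word include ATP6V1C1, which had the lowest log2 fold change of the 46. The part of the shRNA sequence in these changes was not tested.

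**Figure D2:**
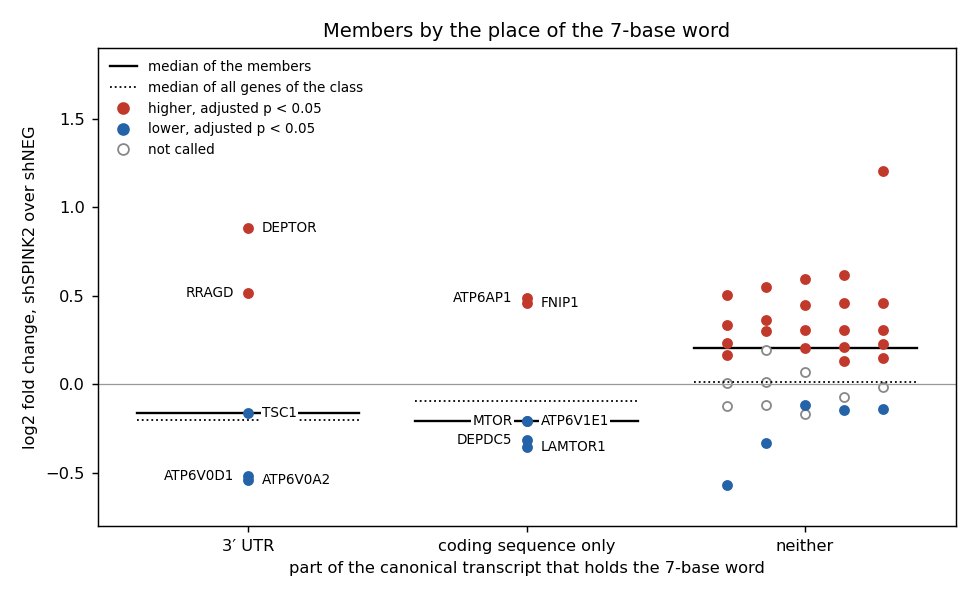
Log2 fold change of the 46 genes (vertical axis) by the part of the canonical transcript that holds the word (horizontal axis), coloured by call. Solid lines are medians of the 46 genes, at -0.16, -0.21 and 0.21, and dotted lines those of all genes of the class averaging at least 50 reads, at -0.20, -0.09 and 0.02. RRAGD and DEPTOR sit far above the median of their class.

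In the V0 sector the forms of subunit a moved apart. Subunit a exists in alternative forms that steer the pump to different membranes. ATP6V0A1 (ENSG00000033627, GRCh38 chr17:42458844-42522582) had 2701, 2554 and 2616 reads in shNEG and 4153, 4220 and 3792 in shSPINK2, each time for libraries A, B and C. Every shSPINK2 library was above every shNEG library, and the log2 fold change was 0.62 ± 0.05 (SE, adjusted p = 1.33e-34), a level 53.2% higher. ATP6V0A2 (ENSG00000185344, chr12:123712353-123761755), the form known mainly from the Golgi and endosomes, had 2558, 2528 and 2636 reads in shNEG and 1787, 1852 and 1724 in shSPINK2. Its groups did not overlap either, in the opposite direction, and it fell by 0.54 ± 0.05 on the log2 scale (adjusted p = 6.72e-24), so its level fell by 31.1%. TCIRG1, the a3 form used by osteoclasts and secretory lysosomes, had 136, 112 and 124 reads against 150, 138 and 141. Its libraries did not overlap, but the log2 fold change of 0.19 ± 0.16 did not pass the test (adjusted p = 0.35).

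Per kilobase of canonical transcript, ATP6V0A1 made up 59.11% ± 0.59 of the summed level of these 3 forms in shNEG and 75.03% ± 0.55 in shSPINK2 (SD, n = 3). The share of ATP6V0A2 was 36.6% ± 0.8 and 20.9% ± 0.4, and that of TCIRG1 4.3% ± 0.3 and 4.1% ± 0.3. The log2 ratio of ATP6V0A1 to ATP6V0A2 per kilobase was 0.74, 0.68 and 0.65 in shNEG and 1.88, 1.85 and 1.80 in shSPINK2, a 2.22-fold shift. An exact two-sided permutation test gave p = 0.10 for it, the smallest value that 3 libraries against 3 can give.

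ATP6V0D1 (ENSG00000159720, chr16:67438014-67481181), subunit d, which couples the membrane ring to the central stalk, had 3605, 3373 and 3348 reads in shNEG and 2495, 2388 and 2394 in shSPINK2. All shSPINK2 libraries lay below all shNEG libraries, and it fell by 0.52 ± 0.05 on the log2 scale (adjusted p = 8.13e-25), so its level fell by 30.1%. ATP6V0E1, the small subunit e, had a log2 fold change of 0.46 ± 0.05 (adjusted p = 4.68e-23). ATP6V0B, subunit c″ and the most abundant pump transcript per kilobase at 7554 in shNEG, fell by 0.11 ± 0.04 on the log2 scale (adjusted p = 0.022). By limma on the recovered reads that call was lost without shNEG B (adjusted p = 0.14), without shNEG C (0.056) or without shSPINK2 C (0.092). ATP6V0C, subunit c, had a log2 fold change of -0.12 (adjusted p = 0.32), and 98.8% of its exon bases are shared with other annotated genes on the same strand, so its count is uncertain. By limma it was 0.00 without shNEG A and -0.20 without shNEG B (adjusted p = 0.029). Over the sector, 2 genes were higher, 3 lower and 2 not called, and the median log2 fold change of -0.11 was 0.00 without shNEG A. The summed level per kilobase was 13988 ± 237 in shNEG and 13943 ± 338 in shSPINK2 (SD, n = 3). That V0 total, in which ATP6V0B weighs most, did not differ beyond its spread, although 2 genes were higher and 3 lower.

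V1 held both the strongest fall and a rise of similar size. ATP6V1C1 (ENSG00000155097, chr8:103021063-103073051), subunit C, which leaves the enzyme when V1 detaches from V0, had 3931, 3898 and 3906 reads in shNEG and 2559, 2835 and 2593 in shSPINK2. Its groups were far apart, and it fell by 0.57 ± 0.05 on the log2 scale (adjusted p = 5.5e-27), so its level fell by 32.5%. ATP6V1F (ENSG00000128524, chr7:128862856-128865847), a part of the rotating central stalk, had 2795, 2639 and 2611 reads in shNEG and 4211, 3916 and 3764 in shSPINK2. It was higher in every shSPINK2 library, with a log2 fold change of 0.55 ± 0.05 (adjusted p = 3.58e-28), or 46.5%. Of its exon bases 23.2% overlap KCP on the other strand, and the strand setting of the counting is not given.

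Within the catalytic head, ATP6V1A and ATP6V1B2 went opposite ways. ATP6V1A, the subunit that hydrolyses ATP, had a log2 fold change of 0.46 ± 0.05 (adjusted p = 7.05e-18), and ATP6V1B2, its partner in the hexamer, fell by 0.14 ± 0.05 (adjusted p = 0.0093). The ATP6V1B2 call was lost by limma without shSPINK2 A (adjusted p = 0.054). The other rotor subunit, ATP6V1D, rose by 0.21 ± 0.06 (adjusted p = 0.0021). In the outer stalks, ATP6V1G1 rose by 0.15 ± 0.05 (adjusted p = 0.0052) and ATP6V1E1 fell by 0.21 ± 0.05 (adjusted p = 0.00025), and 7 and 3 annotated pseudogenes carry their names. ATP6V1H, which silences ATP hydrolysis in free V1, had a log2 fold change of 0.02 ± 0.06 (adjusted p = 0.87). Over V1, 4 genes were higher, 3 lower and 1 not called, with a median of 0.08, and the summed level per kilobase was 14696 ± 257 in shNEG and 16443 ± 372 in shSPINK2 (SD, n = 3). Within that sum, ATP6V1F alone went from 3952 in shNEG to 5789 in shSPINK2.

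Both accessory proteins, which take part in assembly and sorting of the pump, rose together. ATP6AP2 (ENSG00000182220, chrX:40579372-40606848), also known as the prorenin receptor, had 7375, 7523 and 7169 reads in shNEG and 11309, 11784 and 10479 in shSPINK2. The lowest shSPINK2 library exceeded the highest shNEG library by far, and the log2 fold change of 0.59 ± 0.04 had the smallest adjusted p-value of the 46 genes (1.02e-39). ATP6AP1, or Ac45, had a log2 fold change of 0.49 ± 0.04 (adjusted p = 2.68e-30). The sum of both per kilobase was 1.45 times as high in shSPINK2 as in shNEG.

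**Figure D3:**
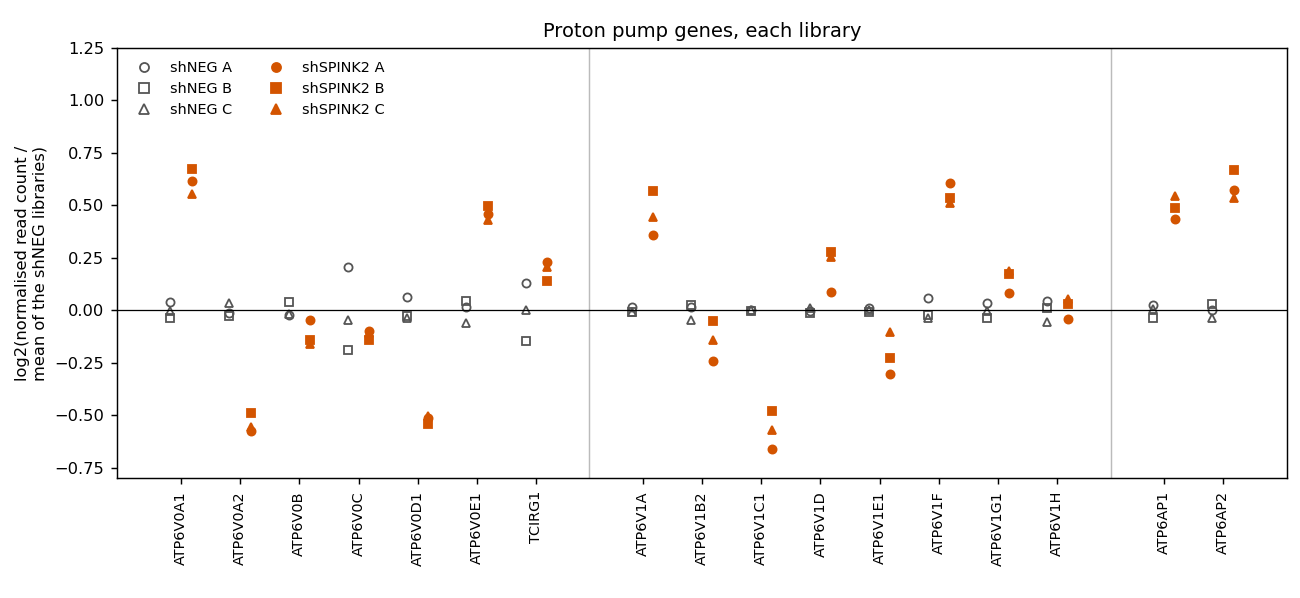
Normalised read count of each pump gene in each library, as log2 of its ratio to the mean of the shNEG libraries (vertical axis), with V0, V1 and accessory genes separated by lines. Grey open symbols are shNEG A, B and C and orange symbols shSPINK2 A, B and C. ATP6V0A1, ATP6V0E1, ATP6V1A, ATP6V1F, ATP6AP1 and ATP6AP2 lie above the line in all shSPINK2 libraries, and ATP6V0A2, ATP6V0D1 and ATP6V1C1 lie below it.

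The scaffold of Ragulator fell while its other subunits rose. LAMTOR1 (ENSG00000149357, chr11:72085895-72103297), the lipid-anchored subunit that wraps the others and ties them to the lysosome, had 3566, 3630 and 3569 reads in shNEG and 2829, 2812 and 2842 in shSPINK2. Its groups did not overlap, and it fell by 0.36 ± 0.05 on the log2 scale (adjusted p = 8.43e-14), so its level fell by 21.8%. The 4 subunits of the inner dimers had similar positive log2 fold changes, 0.37 for LAMTOR2, 0.33 for LAMTOR3, 0.31 for LAMTOR4 and 0.31 for LAMTOR5, with SEs between 0.05 and 0.07 and adjusted p-values of 1.22e-06, 2.56e-07, 3.00e-08 and 7.27e-10. All 5 genes had groups that did not overlap, as had 29.2% (upward) and 30.2% (downward) of all genes with recovered reads. The summed level of Ragulator per kilobase was 15342 ± 386 in shNEG and 17587 ± 527 in shSPINK2 (SD, n = 3).

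Of the 4 Rag genes, 3 were higher. A working Rag dimer joins RagA or RagB with RagC or RagD. RRAGD (ENSG00000025039, chr6:89364616-89412273), known as a target of TFEB and TFE3, had 1865, 1962 and 1907 reads in shNEG and 2749, 2855 and 2665 in shSPINK2. Every shSPINK2 library was above every shNEG library, with a log2 fold change of 0.52 ± 0.05 (adjusted p = 2.00e-22). RRAGC, its alternative in the dimer, had 984, 1003 and 983 reads against 1030, 1102 and 883. Those groups overlapped, with a log2 fold change of 0.01 ± 0.07 (adjusted p = 0.94), and 44.1% of its exon bases are shared with another gene on the same strand. RRAGB (ENSG00000083750, chrX:55717749-55758774) had 397, 420 and 387 reads in shNEG and 585, 586 and 550 in shSPINK2. It had separate groups and a log2 fold change of 0.50 ± 0.09 (adjusted p = 6.98e-08). RRAGA, the more abundant of that pair at 950 against 196 normalised reads per kilobase in shNEG, had a log2 fold change of 0.31 ± 0.06 (adjusted p = 2.88e-07).

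The ratio of RRAGD to RRAGC per kilobase went from near equality to an excess of RRAGD. Its log2 was 0.05, 0.09 and 0.08 in shNEG and 0.54, 0.50 and 0.72 in shSPINK2, a 1.43-fold shift. RRAGB to RRAGA moved by 1.15-fold. In the folliculin complex, the ratio of FNIP1 to FNIP2 moved by 1.5-fold, from a log2 of 0.59 ± 0.12 to 1.17 ± 0.09 (SD, n = 3). Each of the 6 ratios compared, including the 3 among forms of subunit a, had libraries that did not overlap between groups. Each also had an exact two-sided permutation p of 0.10, adjusted p = 0.10, the smallest possible with 3 libraries against 3, which does not separate the ratios. Among single genes with recovered reads, 29.2% did not overlap upward and 30.2% downward. No such share was computed for ratios of other gene pairs.

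**Figure D4:**
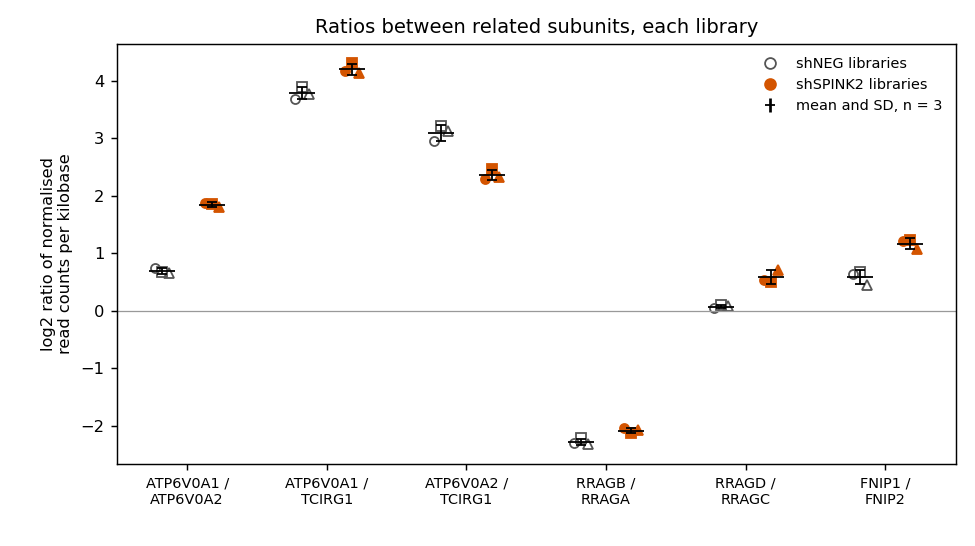
Log2 ratio of normalised reads per kilobase for 6 pairs of related subunits, in each library (points) with mean and SD (n = 3). The ratio of ATP6V0A1 to ATP6V0A2 sits between 0.65 and 0.74 in shNEG (grey) and between 1.80 and 1.88 in shSPINK2 (orange), the largest shift of the 6 pairs.

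FNIP1 (ENSG00000217128, chr5:131641714-131797017), which binds folliculin and with it acts as a GTPase activator for RagC and RagD, had 1002, 998 and 955 reads in shNEG and 1345, 1480 and 1281 in shSPINK2. The groups were separate, with a log2 fold change of 0.46 ± 0.07 (adjusted p = 5.85e-11). FLCN, folliculin itself, rose by 0.21 ± 0.06 on the log2 scale (adjusted p = 0.0010), and 31.2% of its exon bases are shared with another gene. FNIP2, the alternative partner, had a log2 fold change of -0.12 ± 0.08 (adjusted p = 0.22).

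In mTORC1, transcripts of the inhibitory subunits rose and that of the kinase fell. AKT1S1 (ENSG00000204673, chr19:49869033-49878459), which encodes the inhibitor PRAS40, had 1925, 1924 and 1854 reads in shNEG and 2526, 2326 and 2237 in shSPINK2. Its libraries did not overlap, with a log2 fold change of 0.30 ± 0.05 (adjusted p = 7.33e-08). DEPTOR (ENSG00000155792, chr8:119873717-120050918), the other inhibitor, was scarce, with 63, 64 and 59 reads in shNEG and 111, 129 and 106 in shSPINK2. All shSPINK2 libraries were higher, with a log2 fold change of 0.88 ± 0.20 (adjusted p = 3.67e-05), or 84.4%. At 24.1 normalised reads per kilobase in shNEG, against 575 for MTOR, it stayed the least abundant transcript of the complex.

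MTOR, the kinase, fell by 0.21 ± 0.05 on the log2 scale (adjusted p = 3.30e-05), and its groups did not overlap. RPTOR, the subunit that brings in substrates, rose by 0.13 ± 0.05 (adjusted p = 0.021), a call lost by limma without shNEG B (adjusted p = 0.074) or shSPINK2 C (0.11). RHEB, the activating GTPase, rose by 0.16 ± 0.04 (adjusted p = 0.00073). MLST8, shared with mTORC2, had a log2 fold change of -0.07 ± 0.05 (adjusted p = 0.26) and was called by limma only without shSPINK2 C (adjusted p = 0.036).

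The TSC complex moved in both directions. TSC2 (ENSG00000103197, chr16:2047967-2089491), the subunit that acts on RHEB, had 2968, 2783 and 2802 reads in shNEG and 3507, 3237 and 3405 in shSPINK2. Its groups were separate, with a log2 fold change of 0.23 ± 0.05 (adjusted p = 1.02e-05). TSC1, which stabilises TSC2, fell by 0.16 ± 0.06 (adjusted p = 0.023), and TBC1D7 had a log2 fold change of -0.01 ± 0.08 (adjusted p = 0.92). Per kilobase, TSC1 (159 in shNEG) was the scarcest of the complex.

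GATOR1 showed the same division. DEPDC5 (ENSG00000100150, chr22:31753867-31908033), the subunit that contacts the Rags, had 952, 863 and 871 reads in shNEG and 721, 734 and 727 in shSPINK2. All shSPINK2 libraries were lower, and it fell by 0.31 ± 0.07 on the log2 scale (adjusted p = 8.33e-05), with 27.6% of its exon bases shared with another gene. NPRL2, which carries the GTPase-activating residue, rose by 0.23 ± 0.06 (adjusted p = 0.00089). NPRL3 had a log2 fold change of 0.07 ± 0.06 (adjusted p = 0.35).

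In GATOR2, WDR59 rose and MIOS fell. WDR59 (ENSG00000103091, chr16:74871362-75000173) had 1548, 1459 and 1516 reads in shNEG and 2073, 2021 and 2135 in shSPINK2. The groups did not overlap, with a log2 fold change of 0.45 ± 0.06 (adjusted p = 2.73e-14). MIOS fell by 0.33 ± 0.08 (adjusted p = 6.66e-05), also without overlap. SEH1L, shared with the nuclear pore, fell by 0.14 ± 0.06 (adjusted p = 0.031), although its libraries overlapped. By limma its call was lost without shNEG B (adjusted p = 0.11), shSPINK2 A (0.059) or shSPINK2 C (0.11). WDR24 had a log2 fold change of -0.17 ± 0.08 (adjusted p = 0.062), and limma on the recovered reads gave an adjusted p of 0.021, or 0.0054 without shNEG B and 0.0046 without shSPINK2 C. Of the exon bases of WDR24, 38.2% overlap another gene on the other strand.

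CASTOR1 (ENSG00000239282, chr22:30285117-30289622), the arginine sensor that binds GATOR2 when arginine is low, had 13, 10 and 13 reads in shNEG and 35, 31 and 18 in shSPINK2. Its groups did not overlap, and the log2 fold change of 1.21 ± 0.43 was the largest of the 46 genes before shrinkage and the least precise (adjusted p = 0.013). Shrunken by a normal prior it was 0.57, below DEPTOR, ATP6V0A1 and ATP6AP2. Leaving out a library at a time, limma gave log2 fold changes between 0.97 and 1.4. Of its exon bases 83.9% are shared with another annotated gene on the same strand, which had a mean of 0.33 normalised reads in the table, so its count is less certain.

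**Figure D5:**
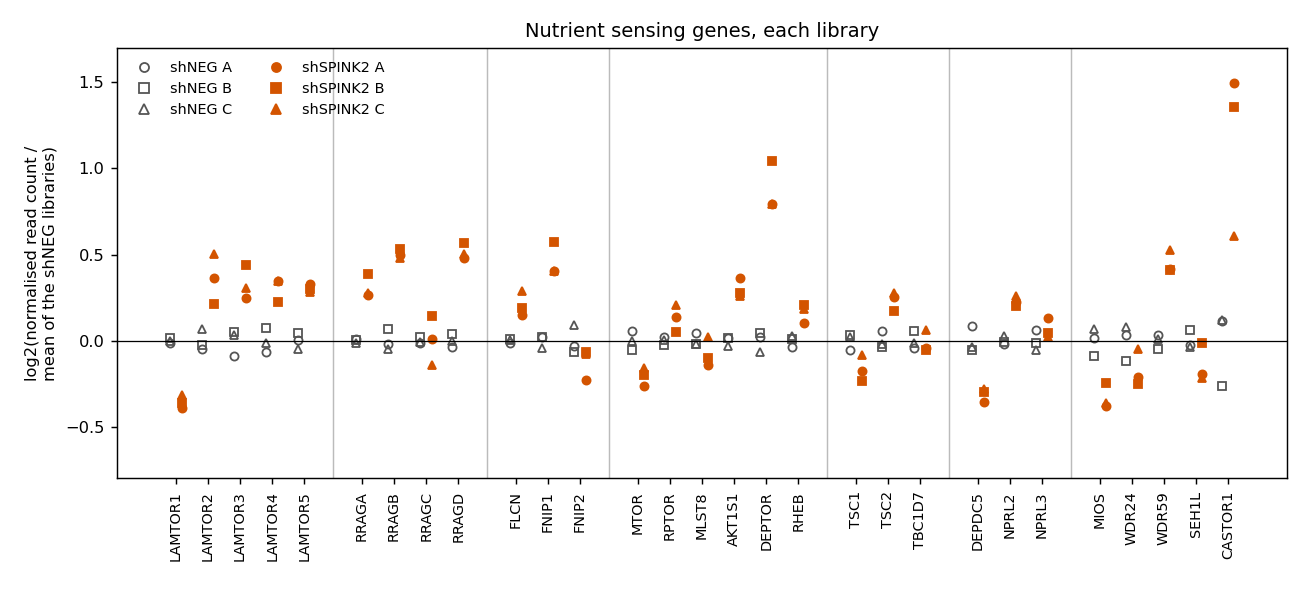
Normalised read count of each sensing gene in each library, as log2 of its ratio to the mean of the shNEG libraries (vertical axis), with complexes separated by lines. LAMTOR1 lies below the line and LAMTOR2 to LAMTOR5 above it in all shSPINK2 libraries (orange), and the shSPINK2 libraries of CASTOR1 spread most, from 18 to 35 reads.

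Other genes of the pathway were counted in lists written for this work. Of 11 assembly and stability factors of the V-ATPase, 7 were higher and 4 were not called, with a median log2 fold change of 0.26, where 22.7% of all tested genes and 29.8% of those averaging at least 50 reads were higher. Named after their values were seen, CCDC115 and DMXL2 had 0.52 and 0.51 and VMA21, a chaperone of V0 assembly, 0.34. TMEM199 (-0.004) and WDR7 (-0.02), likewise named afterwards, were among those not called. Of 16 further nutrient sensing genes 14 were tested, of which 8 were higher, 1 lower and 5 not called, with a median of 0.26. The higher ones included the KICSTOR subunit KICS2 (0.37), the leucine sensor SESN2 (0.44) and its relative SESN1 (0.65). Also among them were the S-adenosylmethionine sensor BMT2 (0.67), the lysosomal cholesterol sensor GPR155 (0.74) and SEC13, the remaining GATOR2 subunit, at 0.14 (adjusted p = 0.015). LRRC8A was the lower one (-0.18). The KICSTOR subunits KPTN (-0.14) and ITFG2 (0.08), with SLC38A9 (0.07) and CASTOR2 (-0.49), were among those not called. Apart from SEC13, all of these were named after their values were seen.

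Of 9 other isoforms of pump subunits, ATP6V0A4 and ATP6V1G3 were at 0, and 5 were tested, of which 1 was higher and 1 lower. The higher one was ATP6V1G2, an isoform of the outer stalk known from neurons, with 78, 68 and 70 reads in shNEG and 177, 202 and 198 in shSPINK2. Its groups did not overlap, and its log2 fold change of 1.41 ± 0.17 (adjusted p = 2.27e-15) passed the threshold of 1. ATP6V1G2 neighbours DDX39B, with which it forms a read-through gene whose mean was 0.49 normalised reads, and DDX39B itself had a log2 fold change of -0.12.

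The transcription factors TFEB, TFE3, MITF and TFEC are known to bind the E-box CACGTG in promoters of lysosomal genes. TFE3 rose by 0.47 ± 0.05 on the log2 scale (adjusted p = 1.24e-18) and TFEC by 0.39 ± 0.06 (adjusted p = 7.24e-12), while TFEB had a log2 fold change of -0.09 ± 0.08 (adjusted p = 0.36) and MITF a mean of 1.83 and no test. Promoter windows, from 250 bases before to 50 after a gene start, were found in the RefSeq table (GRCh38.p14) for 35 of the 46 genes. CACGTG, which reads the same on both strands, was in those of 10 genes (28.6%), against 12.4% of 10574 tested genes with a window and 7.26% of all 35116 windows. The longer TCACGTGA, which contains it, was in 4 of the 35 (11.4%), against 2.16% of the tested genes and 0.98% of all windows, and the same word with a further G before it and C after it was in 2 (5.71%), against 0.89% and 0.35%. These 4 windows are shown with the longest form in capitals, on the strand of the gene.
ATP6V1G1, chr9:114587684-114587743, plus strand: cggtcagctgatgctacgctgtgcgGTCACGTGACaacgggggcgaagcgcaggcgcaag
RRAGB, chrX:55717697-55717756, plus strand: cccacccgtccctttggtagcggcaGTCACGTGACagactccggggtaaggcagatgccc
TSC2, chr16:2047845-2047902, plus strand: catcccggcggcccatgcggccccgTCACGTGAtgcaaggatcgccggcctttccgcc
ATP6V0D1, chr16:67481185-67481242, minus strand: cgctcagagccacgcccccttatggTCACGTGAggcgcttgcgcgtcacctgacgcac

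Having the word did not go with a single direction. Of the 10 genes with CACGTG, RRAGB, FNIP1, LAMTOR4, TSC2 and ATP6V1G1 were higher, ATP6V0D1, LAMTOR1 and ATP6V0B were lower, and RRAGC and NPRL3 were not called, with a median log2 fold change of 0.11. Of the 25 genes with a window and no CACGTG, 14 were higher, 7 lower and 4 not called, with a median of 0.19. Among all tested genes the medians were -0.02 with the word and -0.01 without it. The windows of ATP6AP1 and ATP6AP2, both of which rose, do not hold CACGTG, which says only that these letters are not in those windows.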

How the data were processed

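RNA of 3 shNEG and 3 shSPINK2 samples was aligned by the authors to hg38 with STAR 2.7.11, counted per gene with featureCounts and compared with DESeq2 1.40.0, versions as in the submitters' processing notes. The annotation release and the strand setting are not given in the sources used here. The deposited table holds a signal per gene, for which the authors averaged counts divided by size factors over the 6 libraries. It also holds the authors' log2 fold change with its standard error, the Wald statistic, a score deposited as their ratio, and the deposited p-value and Benjamini-Hochberg adjusted p-value. These columns are the authors' own comparison and are the base of every fold change and call, at an adjusted p-value under 0.05. A status column was not used.

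Whole reads per library were computed here. Genes with 1 read in 1 library share a mean that gives that library's size factor, and the reads of a gene are the whole numbers that give its deposited mean and its fold change within 1e-12. With fold changes moved by 0.001, 0 of 400 genes and 0 of the 46 genes had a solution, and 300 of 300 genes were recovered when tested on simulated data. Genes with a mean over 40000 were not searched. Recovered libraries cannot be tied to replicate numbers. limma 3.58.1 (R 4.3.3) on log2 reads of 17306 genes was the alternative test, and leave-one-out fits used it too. Gene positions, exons and canonical transcripts came from GENCODE release 44, matched by Ensembl ID, and promoters from RefSeq. Python 3.11.15 with numpy 2.4.6, pandas 2.3.3, scipy 1.17.1, numba 0.67.0 and matplotlib 3.10.9 was used. Intervals and SEs cover these libraries only.

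The 46 genes, their complexes and the other lists were chosen with earlier results of these data known. Reads, fold change, SE and adjusted p-value were to be given for called genes with an absolute log2 fold change of at least 0.5 and for the gene of each complex with the largest Wald statistic, and of the other lists for called genes over 1. Genes said to be named after their values were seen fall outside that rule. A gene of the other lists is counted but not reported by name here. Alternatives were other adjustments and thresholds, a mean of at least 50, protein-coding genes only, shrunken or centred fold changes, other scalings and leave-one-out fits.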

Additional observations from a re-analysis of the deposited data

How the results depend on the processing

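The counts of 25 higher and 12 lower genes were 1 and 0 with a log2 fold change over 1 as well, 7 and 3 with one over 0.5, and 17 and 4 by Holm adjustment, and stayed within 1.5 times under the other alternatives. Leave-one-out limma fits on the recovered reads gave 24 to 25 higher and 10 to 12 lower genes, and limma on all 6 libraries gave 25 and 13, the same 37 genes and WDR24. For the pump genes, the mean log2 fold change weighted by precision was 0.12. Their median was 0.21 by limma scaled to the upper quartile and between 0.13 and 0.18 leaving out a library. For the sensing genes these values were 0.12, 0.27 and between 0.17 and 0.23. SPINK2 stayed lower, between -3.06 and -2.80. The upper quartile and total read scalings were chosen after seeing the data. They moved the median of all genes to 0.07 and 0.02, and with the upper quartile 26 genes were higher and 8 lower, the calls of ATP6V0B, ATP6V1B2, TSC1 and SEH1L being lost and NPRL3 gained. The V0 median was 0.04 without genes that share over 25% of their exon bases, and the TSC median was 0.05 with the upper quartile, so neither has a firm direction. For GATOR2 and CASTOR1 the median of -0.14 stayed negative under the alternatives, but the mean weighted by precision was 0.02. The direction of that group therefore depends on the summary used. Of 460 alternative values for single genes, 439 kept the call or its absence. The sign changed in 10, all of ATP6V0C, ATP6V1H, RRAGC or TBC1D7, none of which was called. No paired analysis was possible because the recovered libraries carry no replicate number. A replicate block and another count model were not run. Depth limits CASTOR1 and DEPTOR most, with 10 to 35 and 59 to 129 reads per library.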

Other observations

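Of 7 genes of mTORC2 and of the TTT complex, which helps fold mTOR and related kinases, 1 was higher, 3 lower and 3 not called in the authors' DESeq2 comparison, in which 22.7% of all tested genes were higher and 24.4% lower, with a median log2 fold change of -0.06. TELO2, the TTT subunit named after its value was seen, fell by 0.89 ± 0.05 on the log2 scale (adjusted p = 7.24e-66), and TTI1 by 0.37 ± 0.05 (adjusted p = 1.32e-11). MAPKAP1, which encodes the mTORC2 subunit SIN1, was the higher one, at 0.17 ± 0.05 (adjusted p = 0.0031). Of 8 mTORC1 substrates, 2 were higher, 2 lower and 4 not called, between -0.21 and 0.15. Of the 8 genes of BORC, which binds Ragulator and positions lysosomes, 2 were higher, 1 lower and 5 not called, between -0.47 for BORCS6 and 0.28 for BLOC1S1. mRNA levels say nothing here of mTORC1 activity, which was not measured.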
